A study of Mus musculus with 8 samples.

Results

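The genes described here are 10 maternal effect and subcortical complex genes, Nlrp5, Ooep, Tle6, Khdc3, Padi6, Nlrp14, Nlrp4f, Npm2, Dppa3 and Zar1, among the 26586 genes listed in the count table. They were taken by gene symbol, and all 10 were found, Khdc3 under its older symbol 2410004A20Rik. The RNA-Seq libraries were made from primordial follicles picked out of digested ovaries of mice at postnatal day 3, of C57Bl/6 x CBA background. The mito-supplemented group (n = 4 libraries) came from the third generation descended from oocytes that had received mitochondria at fertilisation, and the control group (n = 4 libraries) had no such ancestry. No injection of oocytes is described for the control line, so injection and added mitochondria cannot be separated here, and nothing states that the libraries of a group came from separate litters. The p values below therefore measure the spread between these libraries. The question addressed was whether the transcripts of primordial follicles differ between the groups after several generations.

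A maternal effect gene acts in the oocyte, and its product is needed by the embryo that forms from that oocyte. Nlrp5, Ooep, Tle6 and Khdc3 encode proteins of the subcortical maternal complex, which lies beneath the surface of the oocyte and is needed for early cleavage of the embryo. Padi6 is needed for the fibrous lattices of the oocyte cytoplasm, and Nlrp14 and Nlrp4f are oocyte members of the same NLRP family as Nlrp5. Npm2 acts on chromatin in the oocyte and early embryo, Dppa3 (also called Stella) guards maternal DNA methylation in the zygote, and Zar1 binds stored maternal RNA. In the ovary these genes are best known from growing oocytes, whereas primordial follicles hold small oocytes within a flat layer of pregranulosa cells.

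Most of the 10 genes varied together across libraries, as described below, so their promoters were examined for shared motifs, and 5 are shown. Promoter sequences, from 250 bases before to 50 bases after the start, were taken from RefSeq (GRCm38.p6) and matched 7 of the 10 genes. Nlrp14, Npm2 and Dppa3 had no entry. The motifs searched on both strands were the E-box CANNTG, its form CAGGTG, which lies within CANNTG, the homeobox motifs TAATTG and TAATTA, and TATAAA. Capitals mark these motifs. Each sequence runs 5′ to 3′ on the strand of its gene. The promoters are Nlrp5 (chr7:23385639-23385938, plus strand), Ooep (chr9:78378539-78378838, minus strand), Padi6 (chr4:140742594-140742893, minus strand), Khdc3 (chr9:73102148-73102447, plus strand) and Zar1 (chr5:72581035-72581334, minus strand).
Nlrp5: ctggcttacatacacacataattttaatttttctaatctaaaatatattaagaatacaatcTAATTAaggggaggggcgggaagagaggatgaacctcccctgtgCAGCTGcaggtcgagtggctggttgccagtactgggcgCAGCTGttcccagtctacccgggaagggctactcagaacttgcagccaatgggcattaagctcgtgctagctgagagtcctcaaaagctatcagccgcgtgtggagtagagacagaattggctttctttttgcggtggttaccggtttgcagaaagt
Ooep: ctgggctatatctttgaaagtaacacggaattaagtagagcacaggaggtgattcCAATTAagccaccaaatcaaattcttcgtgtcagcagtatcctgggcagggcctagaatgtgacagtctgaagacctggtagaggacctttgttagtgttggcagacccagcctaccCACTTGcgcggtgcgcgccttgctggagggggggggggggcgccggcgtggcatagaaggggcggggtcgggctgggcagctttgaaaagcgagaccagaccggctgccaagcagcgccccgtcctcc
Padi6: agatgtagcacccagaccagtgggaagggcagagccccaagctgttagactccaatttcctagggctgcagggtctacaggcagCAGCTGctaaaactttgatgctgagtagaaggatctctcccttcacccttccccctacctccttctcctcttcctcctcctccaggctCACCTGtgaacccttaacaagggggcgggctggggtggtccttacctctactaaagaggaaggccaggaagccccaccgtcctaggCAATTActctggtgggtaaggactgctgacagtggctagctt
Khdc3: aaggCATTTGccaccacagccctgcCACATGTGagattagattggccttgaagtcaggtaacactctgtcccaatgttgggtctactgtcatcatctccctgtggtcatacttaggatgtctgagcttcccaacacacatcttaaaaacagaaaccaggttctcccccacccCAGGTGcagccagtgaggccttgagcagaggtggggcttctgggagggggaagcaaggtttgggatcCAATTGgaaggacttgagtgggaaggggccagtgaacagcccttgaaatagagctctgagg
Zar1: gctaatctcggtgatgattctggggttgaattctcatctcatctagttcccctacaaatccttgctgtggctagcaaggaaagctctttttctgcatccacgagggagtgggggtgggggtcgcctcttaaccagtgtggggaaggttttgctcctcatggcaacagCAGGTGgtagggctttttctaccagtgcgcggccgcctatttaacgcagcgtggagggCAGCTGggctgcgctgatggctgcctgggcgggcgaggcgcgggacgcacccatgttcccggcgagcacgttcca
An E-box CANNTG was present in the promoters of all 7 genes with an entry, and in 72.3% of 32851 mouse promoters of the same length. CAGGTG was present for 3 of 7 genes, Khdc3, Padi6 and Zar1, against 20.2% of all promoters. TAATTG was present for Ooep and Padi6 (8.0% of all promoters). For Nlrp5, which has 2 annotated starts, TAATTA (5.29% of all promoters) was present at the start shown and TATAAA (13.6%) at the other. The promoters not shown, of Tle6 and Nlrp4f, held CANNTG and none of the other motifs, so the 5 shown are those with a further motif. These matches describe letters in the window only. The RefSeq window of Khdc3 lies inside the GENCODE gene model used below (73101836 to 73104438, plus strand), past its start. The window of Nlrp4f also lies inside its gene model. For Ooep, Zar1 and the outer start of Tle6, the gene model begins within the window, upstream of the RefSeq start. The annotations thus place the starts of these genes differently, and the marked E-boxes of Ooep and Zar1 lie inside the gene models.

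The libraries differed widely in what they contained. Total counts were 17658559, 13917412, 18219362 and 10370045 in control replicates 1 to 4; for the mito-supplemented replicates they were 19760763, 13370911, 16116434 and 13276462. Ribosomal RNA rows took 75.3% of the counts of control replicate 4 and between 20.2% and 45.6% of those of the other libraries. Most of this was in the rows Rnr1 and Rnr2, with 74.0% in control replicate 4 and between 14.9% and 44.3% in the others. Control replicate 4 thus kept 2559876 counts outside the ribosomal RNA rows, against at least 7280214 in the others. Oocyte markers were present in every library, but their summed level over 8 genes was 946 CPM (scaled by edgeR's TMM method) in control replicate 1 and between 34.8 and 198 CPM in the other 7 libraries. Red cell markers summed to 3906 and 2495 CPM in control replicates 2 and 3 and to 4877 CPM in mito-supplemented replicate 1. They lay between 23.8 and 79.7 CPM in the other 5 libraries.

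The 10 genes together took 77425 counts in control replicate 1, against 1369, 2762 and 3073 in control replicates 2, 3 and 4. In mito-supplemented replicates 1 to 4 they took 4250, 3066, 16414 and 1633 counts. Their summed level was 3176, 108.5, 158 and 607 CPM in the control libraries and 206, 212, 745 and 113.5 CPM in the mito-supplemented libraries. Control replicate 1 was thus far above every other library, and mito-supplemented replicate 3 and control replicate 4 came next. In bulk RNA, fewer oocytes and less RNA per oocyte cannot be told apart.

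Compared per length, as CPM per kilobase of exon, Dppa3 ranked highest of the 10 in 7 libraries, and Ooep did in mito-supplemented replicate 4. The median over the 8 libraries was 48.7 CPM per kilobase for Dppa3, 14.5 for Nlrp5, 12.3 for Tle6, 12.2 for Ooep and 10.2 for Padi6. Nlrp14 (3.43) and Nlrp4f (1.84) were lower, and Npm2 (0.874), Khdc3 (0.405) and Zar1 (0.163) were lowest. Of the 45 pairs of genes, 29 kept the same order in all 8 libraries. Nlrp5, Tle6, Ooep and Padi6 changed places between libraries, so their order is not fixed beyond the spread: the rank of Ooep ran from 1 to 7, that of Tle6 from 2 to 6 and that of Nlrp5 from 2 to 5.

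Nlrp5 (chromosome 7, 23385889 to 23441922 of GRCm38) is the scaffold-like NLRP protein of the complex. Its level was 1392, 41.5, 71.7 and 206 CPM in the control libraries, replicates 1 to 4. The mito-supplemented libraries had 68.9, 52.5, 245 and 18.4 CPM in the same order. Control replicate 1 was 5.68 times the next library, and the groups overlapped. A pseudogene, Nlrp5-ps, shares 3.75% of the windows of 75 bases, the read length, in Nlrp5 transcripts. In mito-supplemented replicate 4, the library lowest in Nlrp5, it had 242 counts against 264 for Nlrp5, and in control replicate 4 it had 263 against 1045. How many Nlrp5 counts came from the pseudogene was not determined.

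Ooep (chromosome 9, 78376109 to 78378725), a KH-domain protein of the complex, had 289, 2.85, 12.8 and 42.0 CPM in the control libraries and 14.4, 21.8, 83.8 and 30.2 CPM in the mito-supplemented libraries. Its lowest value was in control replicate 2 and its highest in control replicate 1, so a single group held both ends of its range. Tle6 (chromosome 10, 81590904 to 81601073), a relative of the Groucho co-repressors, had 180.5, 13.4, 13.3 and 78.6 CPM in the control libraries and 28.3, 48.4, 47.8 and 22.8 CPM in the mito-supplemented libraries. The mito-supplemented values of Tle6 lay within the range of the control values. Khdc3 (chromosome 9, 73101836 to 73104438), a second KH-domain protein, had few counts, with 287, 13, 7 and 2 in the control libraries and 13, 5, 43 and 97 in the mito-supplemented libraries. Unlike the others, Khdc3 had its next highest level in mito-supplemented replicate 4, at 6.74 CPM against 11.8 CPM in control replicate 1. Its exons overlap those of Gm20509 on the same strand, and 31.3% of its windows of 75 bases are shared with that gene, so its counts are uncertain.

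**Figure D1:**
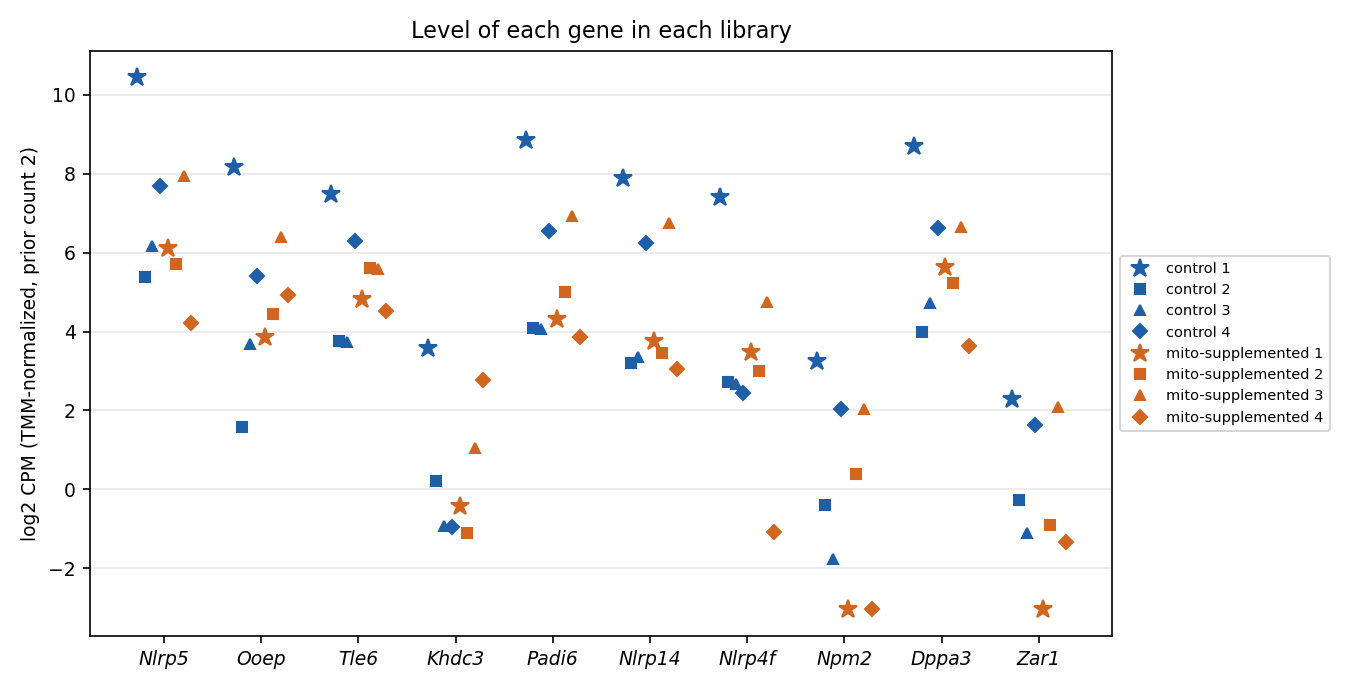
Level of each of the 10 genes in each library, as log2 CPM after TMM normalisation with a prior count of 2 (blue, control; orange, mito-supplemented; a shape for each replicate number). Control replicate 1 (blue star) is the highest library for every gene, and the other 7 libraries of both groups are intermixed.

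Padi6 (chromosome 4, 140727355 to 140742643), of the peptidylarginine deiminase family, had 465, 17.0, 16.8 and 93.4 CPM in the control libraries and 19.9, 31.8, 122.5 and 14.3 CPM in the mito-supplemented libraries. Nlrp14 (chromosome 7, 107166990 to 107198102) had 239, 9.12, 10.1 and 75.2 CPM in the control libraries and 13.3, 10.9, 108 and 8.20 CPM in the mito-supplemented libraries. For both genes control replicate 1 was highest, mito-supplemented replicate 3 next and mito-supplemented replicate 4 lowest. Nlrp4f (chromosome 13, 65177111 to 65205977) had 169, 6.42, 6.29 and 5.33 CPM in the control libraries and 11.0, 7.83, 27.0 and 0.348 CPM in the mito-supplemented libraries. Its control level without replicate 1 was 6.01 ± 0.597 CPM (SD, n = 3), against 46.8 ± 81.6 CPM (SD, n = 4) with it. Nlrp4f shares 1.96% of its windows of 75 bases with Nlrp4g and Gm47180.

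Dppa3 (chromosome 6, 122626410 to 122630272) had 414, 15.8, 26.2 and 98.5 CPM in the control libraries and 49.7, 37.1, 100.4 and 12.2 CPM in the mito-supplemented libraries. Its pseudogene Dppa3-ps accounts for the 3.79% of windows it shares. Npm2 (chromosome 14, 70647302 to 70659244) had 231, 8, 3 and 20 counts in the control libraries and 0, 17, 87 and 0 counts in the mito-supplemented libraries. A count of 0, taken as fewer than 3 counts, allows a level of up to 0.146 CPM in mito-supplemented replicate 1 and 0.209 CPM in replicate 4, for counting error only, as amplified reads are not independent molecules. Exons of Npm2 overlap those of Xpo7 on the same strand, so its low counts are uncertain too. Zar1 (chromosome 5, 72576806 to 72581254) had 117, 9, 6 and 15 counts in the control libraries and 0, 6, 91 and 4 counts in the mito-supplemented libraries, and 20.7% of its windows are shared with Gm15847 and Gm42668. For Npm2 and Zar1 the libraries with the most counts were again control replicate 1 and mito-supplemented replicate 3.

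The comparison of mito-supplemented with control libraries gave lower fitted levels for the 9 genes that passed the expression filter, but no difference passed the test. Of the 9, 7 turned without control replicate 1, and 6 lay above 0 under the germ cell scaling. That scaling moved the median of the 9 genes from -1.46 to 0.062 and the median of all genes from -0.10 to 0.31 (members minus all genes -0.25). For Nlrp5 the mean was 428 ± 647 CPM (SD, n = 4) in the control group and 96.2 ± 101 CPM (SD, n = 4) in the mito-supplemented group. Its fitted log2 fold change was -2.15, with a standard error of 1.12 (adjusted p = 0.669, quasi-likelihood test of edgeR). Nlrp4f fitted at -2.02, with a standard error of 1.34 (adjusted p = 0.713, edgeR). Dppa3, with a mean of 139 ± 187 CPM (SD, n = 4) in the control group and 49.9 ± 37.1 CPM (SD, n = 4) in the other, fitted at -1.47 (standard error 0.97, adjusted p = 0.712, edgeR). The log2 fold changes of the other 6 genes lay between -1.65 for Padi6 and -0.51 for Khdc3, with adjusted p values from 0.712 to 0.911 in the same edgeR test. Zar1 did not pass the filter and was not tested in this fit, and its means were 2.20 ± 2.08 CPM (SD, n = 4) in the control group and 1.21 ± 1.96 CPM (SD, n = 4) in the other.

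By edgeR's quasi-likelihood test, called at an adjusted p under 0.05 and a difference of at least 2-fold, 0 of the 10 genes and 0% of 13873 genes were called. At an unadjusted p under 0.05, 0 of the 9 members tested passed, while 1069 genes did, 736 higher and 333 (2.4%) lower in mito-supplemented samples. Nlrp5 alone of the members passed that level in the likelihood ratio test (1277 of 13873 genes, 417 of them lower) and in DESeq2 (1828 genes, 714 lower). The same held without control replicate 2 (803 of 14481 genes, 287 lower) or 3 (885 of 14256 genes, 304 lower). Without mito-supplemented replicate 3, 3 members passed it, with 783 genes in all, 183 of them lower. With the likelihood ratio test, which the study's methods name, 58 genes (0.418%) were called and none of the 10, with Nlrp5 at an adjusted p of 0.522. DESeq2 called 170 of 16145 genes and none of the 9 members it tested, as it gave no p value for Nlrp4f. For 0 of the 10 genes did the groups fail to overlap, whereas 2.03% of the genes tested were lower and 3% higher in every mito-supplemented library than in every control library. The exact permutation test over libraries (two-sided) gave p values from 0.286 for Zar1 to 0.971 for Khdc3, and 0.0286 is the smallest that 4 libraries against 4 allow. The median log2 fold change of the 9 genes was -1.46, against -0.10 over all genes tested, of which 55.1% were lower; it was above 0 without control replicate 1 and under the germ cell scaling.

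These values rested on control replicate 1. Without it, 7 of the 9 genes tested lay higher in the mito-supplemented group and 2 lower, with a median log2 fold change of 0.19 against 0.04 over all genes, and none was called. Nlrp5 was then at -0.12 (standard error 0.85, adjusted p = 0.974, edgeR) and Nlrp4f at 0.97 (standard error 1.03, adjusted p = 0.806, edgeR). Among all genes tested, 22.5% had their highest level in control replicate 1, while each of the 10 genes did. So did all 8 oocyte markers, all 5 zona and oocyte growth factor genes tested, 7 of 8 oocyte transcription factors and 10 of 12 germ cell RNA-binding genes. Of 25 other maternal effect genes tested, only 12 had their highest level in that library. Mito-supplemented replicate 3 acted the other way: without it the median was -2.71, the opposite of the sign without control replicate 1, and 0 genes were called. Without the 3 libraries high in red cell markers, which were chosen for this once their values had been seen, all 10 genes passed the filter and all 10 were lower, with a median of -1.89 and none called, but control replicate 1 was 1 of the 2 controls left. In that fit of 2 control against 3 mito-supplemented libraries, 5 of the 10 genes had an unadjusted p under 0.05, against 1576 of 14568 genes, of which 715 (4.91% of those tested) were lower. The groups then did not overlap for 2 of the 10 genes, Tle6 and Npm2, and 14.9% of all genes were lower in the same way. Npm2 was in effect a tie, at 3.95 CPM in both control replicate 4 (20 counts) and mito-supplemented replicate 3 (87 counts).

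**Figure D2:**
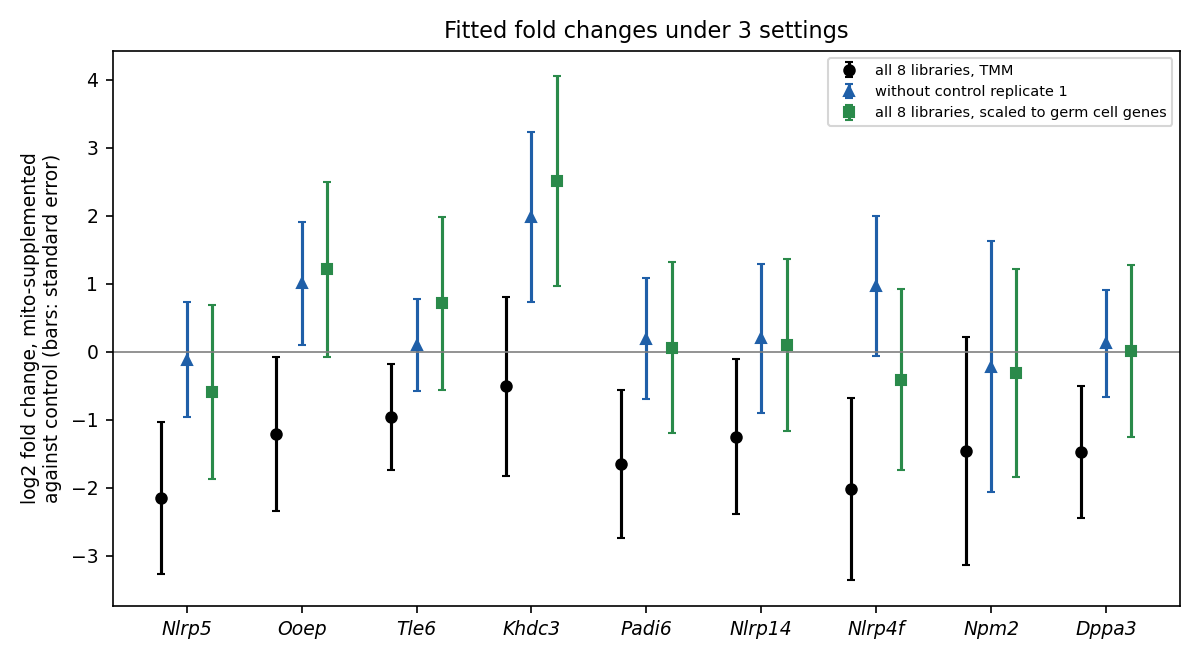
Fitted log2 fold change of mito-supplemented against control libraries for the 9 genes that passed the filter, with bars of 1 standard error (black, all 8 libraries; blue, without control replicate 1; green, scaled to germ cell reference genes). The black values lie between -2.15 and -0.51, while 7 blue and 6 green values lie above 0.

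The same counts were set against 6 germ cell reference genes, Ddx4, Dazl, Figla, Nobox, Lhx8 and Sohlh1, which encode RNA-binding proteins and transcription factors of germ cells. These genes held 19171 counts in control replicate 1, and 430, 698 and 689 in the other controls in order. The mito-supplemented libraries held 2395, 790, 3031 and 316. Relative to them, the wide range of most of the 10 genes narrowed. For every 100 reference counts the 10 genes held 404, 318, 396 and 446 counts in the control libraries and 177, 388, 542 and 517 in the mito-supplemented libraries. Control replicate 1 thus lay within the range of the other libraries on this scale.

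**Figure D3:**
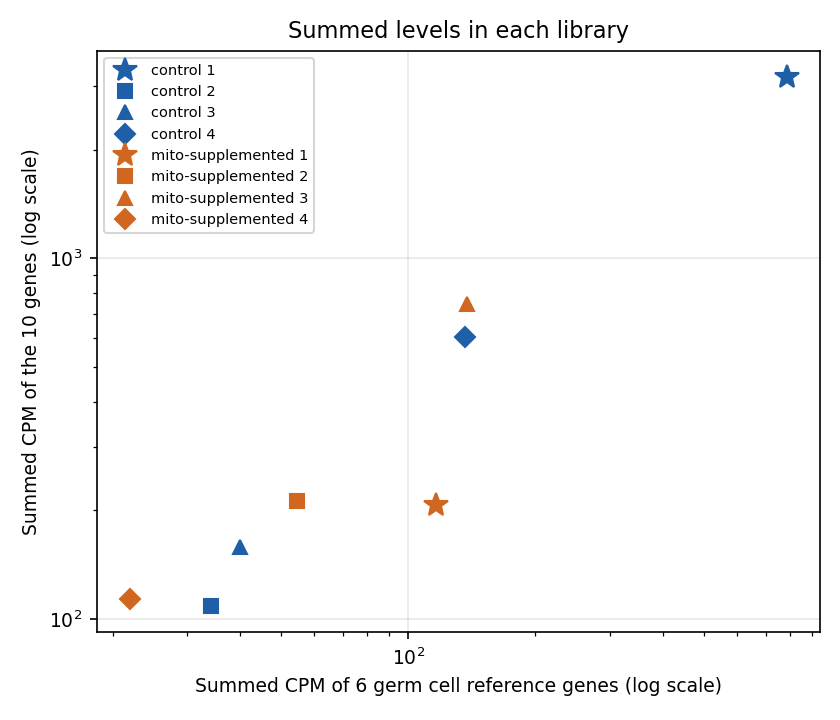
Summed CPM of the 10 genes against summed CPM of the 6 germ cell reference genes, both on log axes, with a point for each library. Control replicate 1 lies at the upper right, at 3176 and 786 CPM, and the other 7 libraries form a band below it.

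Dppa3 kept the steadiest ratio of the 10 genes. It held 52.7, 46.3, 65.6 and 72.4 counts for every 100 reference counts in the control libraries and 42.8, 67.8, 73.0 and 55.7 in the mito-supplemented libraries. Its highest library was 1.71 times its lowest on this scale, against 33.8 times in CPM, and the groups overlapped. Nlrp5 held 177, 122, 179.5 and 152 counts for every 100 reference counts in the control libraries and 59.3, 95.9, 178 and 83.5 in the mito-supplemented libraries. Its range was 3.03-fold, against 75.8-fold in CPM, and 3 of the 4 mito-supplemented libraries lay below all controls. Padi6 narrowed from 32.5-fold to 5.21-fold, Tle6 from 13.6-fold to 4.52-fold and Nlrp14 from 29.2-fold to 6.84-fold. Ooep still ranged 16.4-fold, from 8.37 in control replicate 2 to 138 in mito-supplemented replicate 4, and Nlrp4f 13.6-fold. Khdc3 did not narrow, as its 97 counts in mito-supplemented replicate 4 made 30.7 for every 100 reference counts, against 0.290 to 3.02 in the other libraries.

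Scaled to these germ cell genes in the edgeR fit, 6 of the 9 genes tested had a log2 fold change above 0 and 3 (Nlrp5, Nlrp4f and Npm2) below 0, and none was called. The median was 0.062, while that of all genes moved from -0.10 to 0.31, a difference of -0.25 between the 9 genes and all genes. Dppa3 had 0.015 (standard error 1.26), Padi6 0.062 (standard error 1.26), Nlrp5 -0.60 (standard error 1.28) and Ooep 1.21 (standard error 1.28) in this fit. With library size alone, the median of all genes moved to 0.17 and that of the 9 genes was -1.24.

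**Figure D4:**
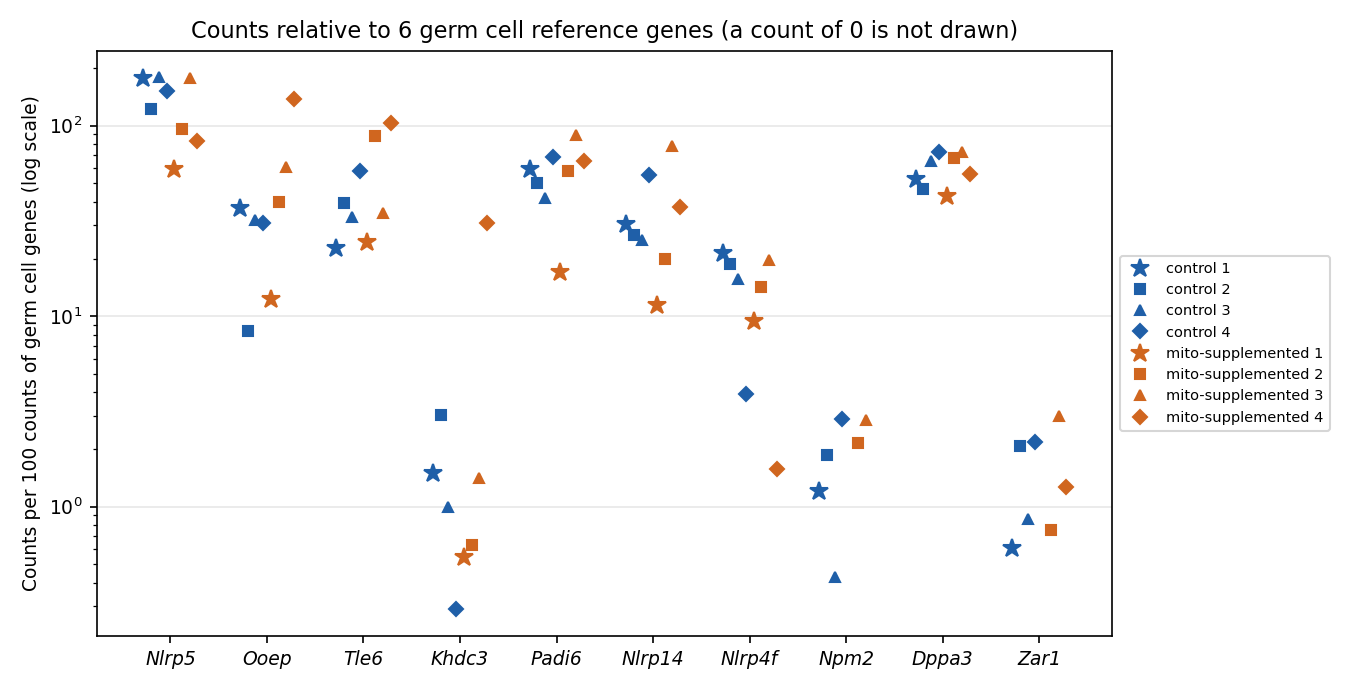
Counts of each gene for every 100 counts of the 6 germ cell reference genes in each library, on a log axis (blue, control; orange, mito-supplemented). Dppa3 spans 42.8 to 73.0 over the 8 libraries, while Khdc3 spans 0.290 to 30.7.

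Across the 8 libraries most of the 10 genes varied together. Pearson's r of a gene's log2 CPM with the mean of the other genes tested was 0.99 for Padi6, 0.96 for Nlrp14 and Nlrp5, and 0.95 for Dppa3 (n = 8 libraries). It was lower for Tle6 (0.89), Ooep (0.84), Npm2 (0.82) and Nlrp4f (0.76), and lowest for Khdc3 (0.38). These values share the libraries, their depth and their oocyte content, and control replicate 1 stands apart in them. Without it, r was 0.99 for Padi6, 0.96 for Nlrp14 and 0.88 for Nlrp5, but 0.46 for Nlrp4f and -0.29 for Khdc3 (n = 7). The 5 other genes most like the mean of the 9 genes were C86187 (r = 0.98), Slc12a2 (0.98), Plekha8 (0.98), Tex14 (0.97) and Gdpd1 (0.97), each over 8 libraries. Tex14, a gene of the bridges between germ cells, had 84.8, 3.57, 5.15 and 18.6 CPM in the control libraries and 5.92, 14.3, 30.4 and 3.75 CPM in the mito-supplemented libraries.

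Of 15 genes, NLRP, KH and ZAR relatives together with Zbed3, 4 (Nlrp4d, Nlrp9a, Nlrp9c and Zar1l) had no count in any library, and 3 passed the filter, none of them called. All 3 were lower, with a median log2 fold change of -2.04, but 1 of the 3 was higher under the germ cell scaling and 1 of the 2 tested without control replicate 1. DESeq2 tested 7 of the 15, with 2 higher and a median of -0.54. With a filter of at least 1 count in any library, 11 were tested and 3 were higher, with a median of -2.04. Khdc1a had the lowest value of the 3 in the main fit (-3.93, standard error 1.80, adjusted p = 0.655, edgeR), with 100.7 CPM in control replicate 1 and at most 9.28 CPM in any other library. Zbed3, a partner of the subcortical complex, was the most abundant and had the highest value (-0.56, standard error 0.94, adjusted p = 0.865, edgeR), which turned to 1.25 (standard error 0.72) without control replicate 1. It had 88.0 CPM in mito-supplemented replicate 4, where Ooep and Khdc3 also stood high relative to germ cell genes.

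Of 26 other maternal effect genes, 25 passed the filter and 0 were called, with 5 higher and 20 lower, a median of -0.59 and, under the germ cell scaling, 12 higher and 13 lower. Without control replicate 1, 11 were higher and 14 lower, with a median of -0.21. Dnmt1, the maintenance DNA methyltransferase and the most abundant of the list, had 238, 606, 538 and 269 CPM in the control libraries and 318, 133, 117 and 121 CPM in the mito-supplemented libraries. Its log2 fold change was -1.26 (standard error 0.46, adjusted p = 0.626, edgeR), and its level was highest in the libraries high in red cell markers. Without those 3 libraries it was -1.01 (standard error 0.31, adjusted p = 0.418, edgeR). Bnc1 had the highest value (1.10, standard error 0.71, adjusted p = 0.711, edgeR) and Btg4, an adaptor for removal of maternal RNA, the lowest (-2.08, standard error 1.43, adjusted p = 0.721, edgeR). Without control replicate 1, Btg4 turned to 1.12 (standard error 1.22) and Bnc1 was at 1.64 (standard error 0.76). The groups did not overlap for 2 of the 25 genes, Eed and Ythdf2, both lower, against 2.03% of all genes. Both were close to a tie. The lowest control and highest mito-supplemented values were 20.19 and 20.04 CPM for Eed, and 33.5 and 32.6 CPM for Ythdf2.

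Of 12 oocyte transcription factors, 4 (Obox1, Obox2, Obox5 and Obox6) had no count in any library, 8 passed the filter and 0 were called. All 8 were lower, with a median of -1.81, but 5 were higher without control replicate 1, with a median of 0.18. As 4 of them (Figla, Nobox, Lhx8 and Sohlh1) are reference genes, the germ cell scaling is not read for this list. Sohlh2 had the lowest log2 fold change (-2.46, standard error 1.48) and Foxo3, the most abundant, the highest (-0.34, standard error 0.53). Sohlh2 turned to 0.86 (standard error 1.20) when control replicate 1 was left out. Of 10 zona and oocyte growth factor genes, 5 passed the filter, all lower with a median of -1.54, and 3 of the 5 were higher under the germ cell scaling. Without control replicate 1, 2 were higher and 3 lower, with a median of -0.33. Zp2, a zona pellucida protein and the most abundant, had 374, 17.0, 7.21 and 107.6 CPM in the control libraries and 16.6, 25.0, 153 and 24.8 CPM in the mito-supplemented libraries. Zp1 had the lowest log2 fold change (-1.82, standard error 1.36) and Gdf9 the highest (-0.59, standard error 0.97). Leaving out control replicate 1 turned Gdf9 to 1.09 (standard error 0.83) and moved Zp1 to -0.71 (standard error 1.43).

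Of 14 germ cell RNA-binding genes, 12 passed the filter, 11 were lower and 1 higher, with a median of -1.51, and 0 were called. Without control replicate 1, 6 were higher and 6 lower, with a median of -0.08. The germ cell scaling also gave 6 higher and 6 lower, but the list holds Ddx4 and Dazl, which are reference genes. Tdrd1, a piRNA pathway gene and the most abundant, had 701, 35.4, 50.3 and 193 CPM in the control libraries and 74.7, 39.9, 111 and 19.9 CPM in the mito-supplemented libraries. Cpeb1, a translational regulator, had the lowest log2 fold change (-2.06, standard error 0.91, adjusted p = 0.642, edgeR), and was at -0.58 (standard error 0.69) without control replicate 1. Ddx25 had the highest (2.97, standard error 1.14, adjusted p = 0.626, edgeR), with 0.164, 0.951, 0.743 and 0 CPM in the control libraries and 6.74, 1.94, 0.998 and 5.56 CPM in the mito-supplemented libraries. Its groups did not overlap, 1 gene of the 12 tested, against 3% of all genes higher in the same way.

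Markers of the cell types that the follicle preparations could hold were measured in the same fit. Of 8 oocyte markers, all 8 passed the filter and all 8 were lower, with a median of -1.72, but 6 of 8 were higher without control replicate 1, with a median of 0.27. The germ cell scaling is not read here, as 6 of the 8 are the reference genes themselves. Their summed level was 946, 44.9, 43.3 and 186 CPM in the control libraries and 133, 63.2, 198 and 34.8 CPM in the mito-supplemented libraries, and Nobox was the most abundant. Of 15 granulosa markers, 13 passed the filter and 11 were higher (12 under the germ cell scaling or without control replicate 1). Without mito-supplemented replicate 3, 10 of 13 were higher, and without its replicate 4, 10 of 14. The granulosa markers summed to 285, 195, 281 and 849 CPM in the control libraries and 462, 1097, 782 and 1216 CPM in the mito-supplemented libraries. Wt1 was the most abundant. DESeq2 called 2 of the 14 granulosa markers it tested, against 170 of 16145 genes, and the 2 edgeR tests called 0. Amh, with no count in 2 libraries, and Fshr, with no count in 3, did not pass the filter. All 10 stroma markers were higher (8 without mito-supplemented replicate 3 or 4), none called, summing to 430.3, 509, 787 and 2632 CPM in the control libraries and 1056, 1084, 2897 and 2535 CPM in the mito-supplemented libraries, with Col3a1 most abundant. All 10 surface epithelium markers were also higher, with a median of 1.89. This median was 1.33 without the 3 libraries high in red cell markers and 1.51 without control replicate 3. It was 3.37 without control replicate 4 and 3.33 under the germ cell scaling. These markers summed to 168, 114, 101 and 687 CPM in the control libraries and 444, 1334, 589 and 1328 CPM in the mito-supplemented libraries. The likelihood ratio test called 2 of these 10, against 58 of 13873 genes (0.418%). DESeq2 also called 2 of the 10, against 170 of 16145 genes, and the quasi-likelihood test called 0. Wt1 was again the most abundant.

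**Figure D5:**
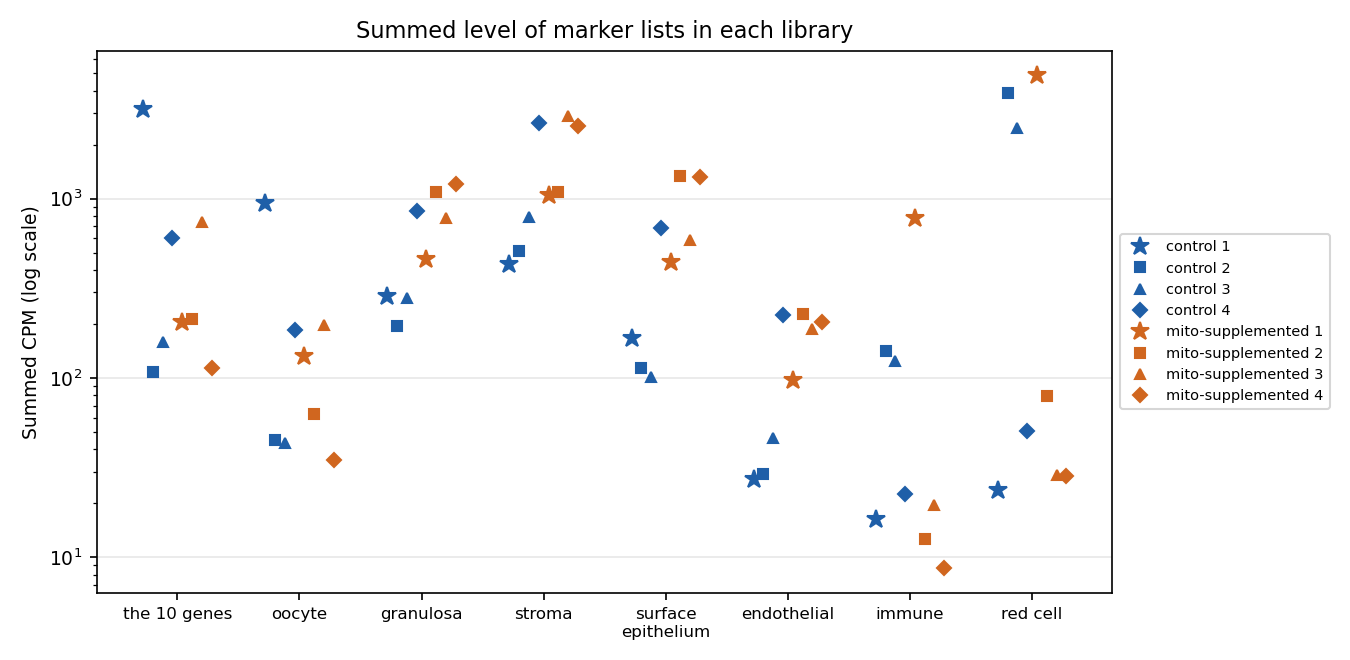
Summed CPM of the 10 genes and of 7 marker lists in each library, on a log axis (blue, control; orange, mito-supplemented). Control replicate 1 is highest for the 10 genes and the oocyte markers and among the lowest for stroma and endothelial markers.

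Endothelial markers summed to 27.2, 28.9, 46.3 and 225 CPM in the control libraries and 97.7, 228, 187 and 204 CPM in the mito-supplemented libraries, with 6 of 8 higher, 5 of 8 without control replicate 1, and Kdr most abundant. The likelihood ratio test called 1 of these 8, against 0.418% of all genes. DESeq2 also called 1 of the 8, against 170 of 16145 genes. Immune markers summed to 16.3, 141, 124 and 22.5 CPM in the control libraries and 781, 12.6, 19.5 and 8.69 CPM in the mito-supplemented libraries. Of 10 immune markers, 6 passed the filter and all 6 were higher, but only 2 of 6 without mito-supplemented replicate 1, with a median of -1.97 against 0.90. The replicate block also gave 2 of 6 higher, and the germ cell scaling 4 of 6. Lyz2 was the most abundant of these, and C1qb had no count in any library. Of 10 red cell markers, 7 were listed and 4 passed the filter, all 4 lower with a median of -0.24, but all 4 were higher without control replicate 2, with a median of 0.78. Without mito-supplemented replicate 2, 3 or 4, 4 of 5 were higher, and without its replicate 1 the median was -4.89. The 7 summed to 23.8, 3906, 2495 and 50.7 CPM in the control libraries and 4877, 79.7, 28.9 and 28.2 CPM in the mito-supplemented libraries, with Slc4a1 most abundant. The part of these differences in cell content in the values of the 10 genes was not tested.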

How the data were processed

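Read counts of primordial follicle RNA were compared between 4 control and 4 mito-supplemented libraries. The authors trimmed reads with Trim Galore 0.4.4, mapped them with STAR 2.5.3a to the mouse genome and assigned them to exons with featureCounts. The table that the authors deposited gives raw counts for 26586 genes, with totals between 10370045 and 19760763 a library. Annotation release, strand setting and multiply mapped reads are not described in the sources used here. A control library that the authors excluded was not analysed here. Groups and replicate numbers are from the labels, whose prefixes have no stated meaning.

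The test was the quasi-likelihood test of edgeR 4.0.16 (R 4.3.3), with TMM normalisation, the default expression filter and Benjamini-Hochberg adjustment over 13873 genes. Calls needed an adjusted p under 0.05 and at least 1 log2 unit of change in either direction. Standard errors were the absolute log2 fold change over the root of F, and log2 CPM used a prior count of 2. Alternatives were the likelihood ratio test, DESeq2 1.42.0, other normalisations and filters, the replicate block, sums by label prefix, and each library left out. The edgeR fits were tested on simulated data. No pair of libraries was a duplicate (chi-square per degree of freedom at least 50.0).

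Gene models were GENCODE M21 (GRCm38), matching 24546 symbols, 2078 of them older ones. Named genes were the 10 members, the highest, lowest and most abundant gene of each list, and the 5 genes most correlated with the members. The members and lists were chosen with earlier results of these data known.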

Additional observations from a re-analysis of the deposited data

Results flagged for a closer look

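In 46 groups of 4 libraries examined, 3 libraries stood apart from the others of their group, while chance gives about 2.3. Control replicate 1 stood apart for Nlrp4f, at 7.40 log2 CPM with the other 3 control libraries between 2.45 and 2.71. Mito-supplemented replicate 1 stood apart for the sum of the other maternal effect genes, at 11.37 log2 CPM (2646 CPM), with the other 3 libraries between 1697 and 1815 CPM. Mito-supplemented replicate 3 stood apart for the sum of the zona and oocyte growth factor genes, at 7.89 log2 CPM (237 CPM), with the other 3 between 37.0 and 44.2 CPM.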

How the results depend on the processing

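The count of called genes was 0 in edgeR's quasi-likelihood test under every normalisation, filter and set of libraries tried, and under the replicate block, but 58 with the likelihood ratio test and 170 with DESeq2. No member was called under any alternative that tested it. Non-overlapping members numbered 0, except 2 without the 3 libraries high in red cell markers. The cause was not tested.

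Scaled to germ cell genes, where the median of all genes was 0.31, log2 fold changes moved to 1.21 for Ooep, 0.71 for Tle6, 2.51 for Khdc3, 0.062 for Padi6, 0.10 for Nlrp14 and 0.015 for Dppa3, and the median to 0.062. With each library left out, they ran from -1.92 to 1.01 for Ooep, -1.30 to 0.10 for Tle6, -1.74 to 1.98 for Khdc3, -2.71 to 0.19 for Padi6, -2.90 to 0.20 for Nlrp14, -2.83 to 0.97 for Nlrp4f and -2.03 to 0.12 for Dppa3, with the median from -2.71 to 0.19. Each upper end was without control replicate 1. Nlrp5 ran from -3.16 to -0.12 and Npm2 from -3.13 to -0.22.

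With the replicate block, Ooep was at 0.58 and Khdc3 at 0.21, Nlrp5 at -1.47 and the median at -0.89, with 0 genes called. Libraries with the same number share only that number: their deviations correlated at -0.24, -0.19, -0.33 and 0.22.

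There were 4 libraries a group, the common biological coefficient of variation was 0.771 and control replicate 1 lay far above the rest. Low counts limit Khdc3, Npm2 and Zar1.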
